A study of Rattus norvegicus with 9 samples.

Results

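Microglia are the resident immune cells of the brain, and perivascular macrophages are related cells that lie along its vessels. Both watch the tissue through surface receptors, take up debris and complement-tagged material, and can present antigen on MHC class II molecules. The supraoptic nucleus is a part of the hypothalamus that holds the large neurons which secrete vasopressin and oxytocin. There microglia lie among neurons and astrocytes whose contacts are remodelled when the animal lacks water. The 10 genes described here are commonly used as markers of these cells: Cx3cr1, Csf1r, C1qb, Cd74, RT1-Da, Ctss, Fcgr2b, Itgam, Ptprc and Cd14. All probe sets annotated to exactly 1 of these symbols were taken, whatever their signal, which gave 18 probe sets of the 8740 on the array that are not controls. A probe set is a group of short oligonucleotides on the array that together read 1 transcript.

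Total RNA of the supraoptic nucleus was measured on 9 Affymetrix arrays. All animals were male Sprague Dawley rats, aged 10 to 12 weeks per the labels. The 3 groups were dehydrated for 1 day, dehydrated for 3 days, or controls, with 3 arrays in each, and the titles give the arrays of every group the letters a, b and c. The labels give no genotype or drug, and do not say whether an array carries RNA of 1 animal or of a pool, so a p-value here reads only how far these samples spread, and part of that may be technical.

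Values are MAS5 signals, a linear intensity for each probe set. Differences are given as log2 fold changes of signal + 4 with their standard error (SE), tested with limma. Probe sets with a mean signal under 23.1 over the 9 arrays were not tested. Of the 18 marker probe sets 9 passed this filter: 1 of Cx3cr1, 1 of Ctss, 1 of the 3 of Ptprc, and both of C1qb, RT1-Da and Cd14. The 9 others were all 4 of Cd74, 2 of Ptprc, and the only ones of Csf1r, Fcgr2b and Itgam. The filter kept 60% of all probe sets. The nearest marker inside it was the Ptprc probe set M25823_s_at, with a mean of 26.3, and the nearest outside was Itgam with 15.8.

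The median signal of an array lay between 26.9 and 40.4. The highest median, 40.4, was that of 1-day b, and the next was 36.2. This array was not among those left out as doubted below. In control and at 1 day the array of letter c stood apart: their brightest signals were 2239 at 1 day and 2105 in control, against 3867 to 6295 on the other 7 arrays, and the oxytocin gene Oxt read 272.0 and 208.3 there, against 2331 to 4356. Fits with both of these arrays left out are called fits without the doubted arrays. The tissue was checked by the vasopressin gene Avp, which read 1622 to 5678 over the 9 arrays. The ratio of 3′ to 5′ signal of beta-actin, a sign of RNA quality, was 1.13 to 1.48 at 1 day, above its 0.743 to 1.07 in control, and 0.991 to 1.43 at 3 days. For GAPDH the ratio was 0.850 to 1.05 at 1 day, 0.892 to 1.55 at 3 days and 0.926 to 1.09 in control.

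Promoter sequences are shown for the 3 genes with a tested probe set whose dehydrated and control arrays did not overlap (Cx3cr1, RT1-Da and Ctss), and for C1qb, both of whose probe sets followed the letter. They come from RefSeq, build GRCr8, and run 5′ to 3′ on the gene's strand from 250 bases before to 50 after the start that RefSeq's table uses; 9 of the 10 genes matched, all but Fcgr2b. Capitals mark GAGGAA or its reverse complement TTCCTC, the core of many sites of PU.1 (a transcription factor of myeloid cells), and CTGATTGG or its reverse complement CCAATCAG, a form of the Y box of MHC class II promoters. Both strands were searched, and the motifs do not overlap in these windows. Cx3cr1 is at chr8:128677017-128677316 on the minus strand, C1qb at chr5:154407778-154408077 on the minus strand, RT1-Da at chr20:4515165-4515464 on the plus strand and Ctss at chr2:185775146-185775445 on the plus strand.
Cx3cr1: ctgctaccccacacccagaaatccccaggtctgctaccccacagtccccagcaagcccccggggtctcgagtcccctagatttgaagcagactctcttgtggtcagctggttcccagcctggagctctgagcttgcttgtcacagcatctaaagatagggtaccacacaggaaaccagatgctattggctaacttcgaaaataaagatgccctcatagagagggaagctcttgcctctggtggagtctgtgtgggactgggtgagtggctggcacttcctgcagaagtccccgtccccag
C1qb: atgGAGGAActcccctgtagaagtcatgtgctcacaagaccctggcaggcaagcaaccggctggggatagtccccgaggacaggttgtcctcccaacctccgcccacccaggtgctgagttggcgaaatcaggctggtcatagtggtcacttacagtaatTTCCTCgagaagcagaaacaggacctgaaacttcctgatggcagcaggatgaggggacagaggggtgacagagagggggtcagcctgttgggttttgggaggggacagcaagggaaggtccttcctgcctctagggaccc
RT1-Da: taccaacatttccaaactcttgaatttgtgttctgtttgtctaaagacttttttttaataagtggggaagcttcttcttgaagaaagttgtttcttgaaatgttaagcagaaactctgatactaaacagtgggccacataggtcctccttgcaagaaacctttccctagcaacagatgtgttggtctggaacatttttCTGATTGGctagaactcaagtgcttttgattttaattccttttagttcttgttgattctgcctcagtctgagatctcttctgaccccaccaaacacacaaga
Ctss: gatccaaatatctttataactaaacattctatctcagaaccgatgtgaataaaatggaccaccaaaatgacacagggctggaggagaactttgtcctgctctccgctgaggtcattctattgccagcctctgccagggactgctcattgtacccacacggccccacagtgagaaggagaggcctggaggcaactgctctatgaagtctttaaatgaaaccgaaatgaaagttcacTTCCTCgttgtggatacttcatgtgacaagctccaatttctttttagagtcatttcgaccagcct
GAGGAA was present in 7 of the 9 marker promoters (C1qb, Ctss, Itgam, Ptprc, Cd14, Cd74 and Csf1r) and in 27.6% of all 33469 promoters of this length in the table. CTGATTGG was present in RT1-Da alone of the 9, at base -52 from the start, and in 3.5% of all. The match in the Ctss window begins at -15, and those in C1qb at -247 and -90. The Cx3cr1 window holds neither, and lies inside the span annotated for that gene (chr8:128661294-128679048), as RefSeq's table uses a start within it. Some or all of the matches of Ctss, Cd74, Cd14, Itgam and Csf1r likewise lie inside the spans annotated for these genes. A match is a description of the letters, not a binding site, and these windows were not set against the signals.

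Against control, the marker with the smallest p was Cx3cr1, higher at 1 day by 0.69 ± 0.33 (log2 fold change ± SE), and limma called 0 of the tested markers at either time. Cx3cr1 and Ctss read higher than control in all 3 letter pairs at both times. C1qb varied with the letter rather than with dehydration. Both RT1-Da probe sets ran in opposite order over the groups, and both of Cd14 had their lowest signal on a 1-day array. Csf1r, Cd74, Itgam and Fcgr2b were under the filter. In each of the 3 comparisons 0 of the 9 tested marker probe sets passed (limma adjusted p of 0.998 to 1.00), and 0% of all 5247 tested probe sets did. At an unadjusted p under 0.05, the markers numbered 0 at 1 day, 0 at 3 days and 1 between the times, where all tested probe sets gave 1.01%, 1.72% and 1.83%. With the letter as a block these were 1 at 1 day (Cx3cr1), 0 at 3 days and 1 between the times (Cd14 AF087943_s_at), where all tested probe sets gave 2.59%, 5.15% and 5.24%. The 1-day and 3-day comparisons share the same 3 control arrays and are not independent.

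**Figure D1:**
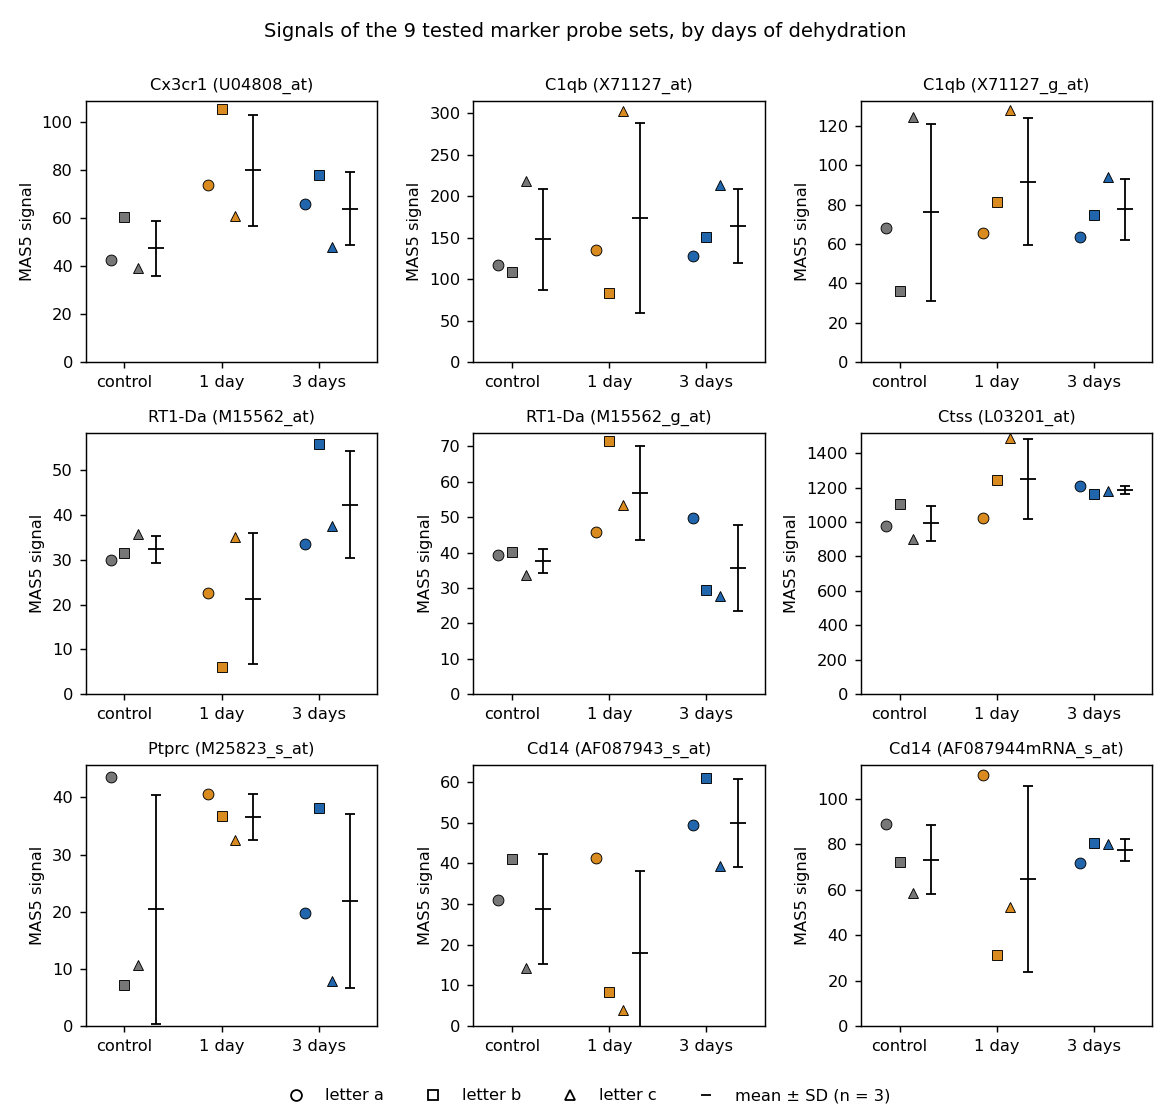
MAS5 signal (vertical axes, linear from 0) of the 9 tested marker probe sets by group, with 1 point per array, a shape per letter, and the mean ± SD of 3 arrays; the lower bar of Cd14 AF087943_s_at at 1 day would pass below 0 and ends at the axis. All 3 Cx3cr1 signals at 1 day (60.7 to 105.5) lie above all 3 in control (39.2 to 60.4), and the C1qb arrays of letter c are the highest of each group.

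Cx3cr1 encodes the receptor for fractalkine, a chemokine that neurons carry on their surface, and is among the most used markers of microglia. Its probe set (U04808_at) read 42.7, 60.4 and 39.2 on the control arrays a, b and c, 73.7, 105.5 and 60.7 at 1 day, and 65.8, 78.0 and 47.8 at 3 days. The 1-day arrays did not overlap with control, by a margin of 60.7 against 60.4; the 3-day arrays overlapped with both other groups, and in every group letter b was highest and letter c lowest. The mean was 80.0 ± 23.0 at 1 day, against 47.4 ± 11.4 in control (SD, n = 3 each). The log2 fold change at 1 day was 0.69 ± 0.33 (SE), which did not pass (limma adjusted p = 1.00; unadjusted p = 0.059). Within letters a, b and c the 1-day array was higher by 0.73, 0.77 and 0.58 on the log2 scale, 3 of 3 pairs. Without the doubted arrays the value was 0.75, and with each array left out in turn it was 0.49 to 0.87. At 3 days the mean was 63.9 ± 15.2 (SD, n = 3) and the log2 fold change against control 0.40 ± 0.33 (limma adjusted p = 1.00). The 3-day array was higher than control in 3 of 3 letter pairs, by 0.58, 0.35 and 0.26, and lower than the 1-day array in all 3 (-0.30 ± 0.33 between the times, and -0.47 without the doubted arrays; limma adjusted p = 0.998). Of the spread of Cx3cr1 over the 9 arrays, 50.6% lay between groups, 46.8% between letters and 2.5% in neither. In tissue RNA, a difference in the number of cells of a type and a difference in RNA per cell cannot be told apart.

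The groups did not overlap at 1 day for 2 of the 9 tested marker probe sets, both higher than control: Cx3cr1 and the RT1-Da probe set M15562_g_at. Over all tested probe sets 2.63% were higher in this way at 1 day. The same 1-day arrays had higher beta-actin 3′ to 5′ ratios. Their summed signal of 8 red cell and endothelial markers was also higher (3771 to 5223 at 1 day, against 3282 to 3464 in control). That sum rests mostly on the globin genes Hbb and Hbb-b1. At 1 day Hbb, Hbb-b1 and Alas2 were higher (log2 fold changes of 0.34, 0.56 and 0.37). Flt1, Pecam1 and Slc2a1 were lower (-0.42, -0.10 and -0.14). The part of the ratios or of this sum in the Cx3cr1 result was not tested. The 5 other genes of the list of CSF1 and CX3CL1 signalling on the array include the fractalkine gene Cx3cl1. It read 419.6, 372.8 and 608.6 at 1 day, against 392.8, 283.9 and 420.3 in control, with a log2 fold change of 0.34 ± 0.26. At 3 days Cx3cl1 stood at -0.08 ± 0.26 against control. Of the 5 tested genes of this list 3 were higher and 2 lower at 1 day (median 0.13, against 0.02 over all tested probe sets), and 2 higher and 3 lower at 3 days (median -0.08, against 0.02). In this list 0 genes were called by limma and 0 had an unadjusted p under 0.05.

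Csf1r, the receptor for CSF1 and IL-34 on which microglia depend for survival, was under the filter. It read 7.1, 10.7 and 12.6 in control, 7.5, 1.8 and 15.9 at 1 day, and 5.8, 3.3 and 19.9 at 3 days. The groups overlapped in every comparison. Its ligand gene Csf1 passed the filter, with log2 fold changes of -0.09 ± 0.57 at 1 day and -0.24 ± 0.57 at 3 days.

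C1qb encodes the B chain of C1q, the molecule that starts the classical complement pathway and that microglia make in the brain. The probe set X71127_at read 117.4, 108.4 and 217.8 in control, 135.1, 83.7 and 302.8 at 1 day, and 127.5, 150.5 and 213.7 at 3 days. The array of letter c was the highest of each group, and all 3 letter c arrays lay above the 6 others, so the groups overlapped throughout. The log2 fold changes were 0.10 ± 0.45 at 1 day, 0.18 ± 0.45 at 3 days and 0.08 ± 0.45 between the times (limma adjusted p of 0.998 to 1.00). Without the doubted arrays these were -0.081, 0.49 and 0.57. Letters held 80.2% of the spread of this probe set and groups 1.95%.

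The other C1qb probe set, X71127_g_at, was designed from the same sequence entry. It read 67.9, 36.0 and 124.8 in control, 65.6, 81.6 and 128.0 at 1 day, and 63.7, 74.8 and 94.2 at 3 days. Again the letter c arrays were the 3 highest of the 9; 5.58% of all tested probe sets had this order, and of the 9 tested marker probe sets only both of C1qb. Its log2 fold changes were 0.36 ± 0.43 at 1 day, 0.17 ± 0.43 at 3 days and -0.20 ± 0.43 between the times. At 1 day the value rests on 1 array: it was -0.06 without control b, whose 36.0 was the lowest of the 9. The 3-day value was -0.26 without control b and 0.59 without the doubted arrays, and between the times the value was 0.063 without them. Over the 9 arrays, which share groups and letters, both probe sets had a Pearson r of 0.73 (Spearman 0.70).

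**Figure D2:**
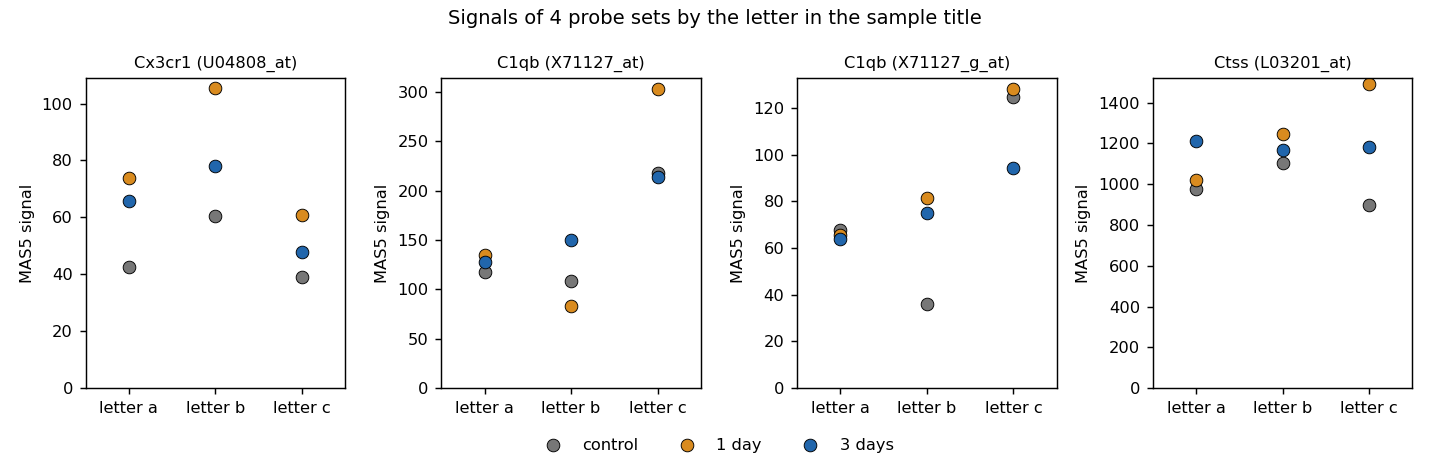
MAS5 signal (vertical axes, linear from 0) of 4 marker probe sets by the letter in the sample titles, with 1 point per array coloured by group. Both C1qb probe sets are highest on the letter c arrays in every group (213.7 to 302.8 for X71127_at), Cx3cr1 is highest on letter b within each group, and Ctss keeps no such order.

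The C chain gene C1qc had the smallest p of the complement list. It read 228.3, 169.6 and 176.9 at 3 days, against 160.8, 112.1 and 144.7 in control, with 208.0, 136.4 and 161.7 at 1 day. Its lowest 3-day value exceeded its highest in control, an order that 4.73% of all tested probe sets had. The log2 fold change at 3 days was 0.45 ± 0.27 and did not pass (limma adjusted p = 1.00). Of the 6 complement genes tested, from 12 on the array, 3 were higher and 3 lower at 1 day (median 0.04), and 4 higher and 2 lower at 3 days (median 0.21). The list had 0 calls and 0 genes at an unadjusted p under 0.05 at both times. The complement component C3 and the receptor C3ar1 were under the filter, with means over the 9 arrays of 6.69 and 8.51.

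RT1-Da encodes the alpha chain of a rat MHC class II molecule, which presents peptides to helper T cells. The probe set M15562_g_at read 39.2, 40.1 and 33.7 in control, 45.7, 71.4 and 53.4 at 1 day, and 49.7, 29.4 and 27.8 at 3 days. The lowest 1-day array exceeded the highest of control, while the 3-day arrays lay on both sides of control. The log2 fold changes were 0.53 ± 0.34 at 1 day, -0.11 ± 0.34 at 3 days and -0.64 ± 0.34 between the times; none passed (limma adjusted p of 0.998 to 1.00). Without the doubted arrays the value at 3 days was -0.18.

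The probe set M15562_at, from the same sequence entry, gave the opposite order. It read 29.9, 31.5 and 35.7 in control, 22.7, 6.0 and 35.2 at 1 day, and 33.6, 55.9 and 37.6 at 3 days. In every letter pair the 1-day array was lower than control and the 3-day array higher, although the groups overlapped and the letter c arrays differed by under 3 units of signal. The log2 fold changes were -0.73 ± 0.51 at 1 day, 0.32 ± 0.51 at 3 days and 1.05 ± 0.51 between the times (limma adjusted p = 0.998 between the times). The array 1-day b set much of their size: without it they were -0.17 at 1 day and 0.49 between the times, and without 3-day b the 3-day value was 0.12. Over the 9 arrays both probe sets had an r of -0.79 (Spearman -0.70), so the array gives no single direction for RT1-Da at 1 day. The array farthest from the rest on both was 1-day b, with 71.4 on M15562_g_at and 6.0 on M15562_at. Of all tested probe sets 9.28% were lower in all 3 letter pairs at 1 day and 16.9% higher in all 3 at 3 days.

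**Figure D3:**
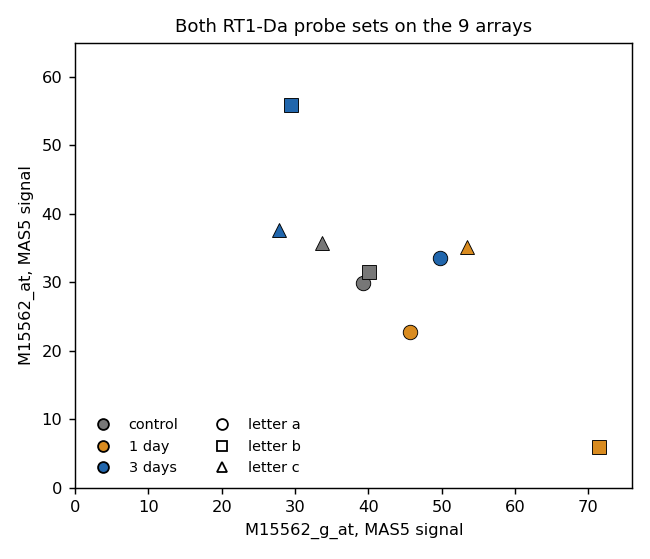
MAS5 signals of both RT1-Da probe sets on the 9 arrays (M15562_g_at across, M15562_at up, both linear from 0), coloured by group with a shape per letter. Arrays with a higher signal on one probe set tend to have a lower one on the other (r = -0.79), and the 1-day array of letter b lies at 71.4 and 6.0.

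Cd74 encodes the invariant chain, which escorts MHC class II molecules to the endosome. All 4 of its probe sets were under the filter. The brightest of them, X13044_at, read 15.7, 2.4 and 21.6 in control, 14.5, 5.4 and 23.0 at 1 day, and 2.4, 23.2 and 11.8 at 3 days, with each group spanning most of the range. For X13044_g_at the range was 3.4 to 7.3 on control arrays, 3.6 to 17.7 on 1-day arrays and 5.6 to 20.8 on 3-day arrays. X14254cds_at gave 2.1 to 2.8 on control arrays, 2.3 to 9.0 on 1-day arrays and 2.7 to 8.5 on 3-day arrays. X14254cds_g_at gave 3.0 to 4.1 on control arrays, 5.5 to 30.1 on 1-day arrays and 2.3 to 4.7 on 3-day arrays. For X14254cds_g_at the 1-day range thus lay above that of control, at signals where MAS5 carries little information.

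Ctss encodes cathepsin S, the lysosomal protease that trims the invariant chain, and is a marker of microglia in the brain. Its probe set (L03201_at) read 974.8, 1104 and 899.1 in control, 1022.5, 1245.5 and 1488.5 at 1 day, and 1211.4, 1165.5 and 1182.4 at 3 days. The 3-day arrays exceeded each control array and lay close to each other, while the 1-day arrays overlapped with both groups. The mean was 1186 ± 23.2 at 3 days, against 993 ± 104 in control (SD, n = 3 each), and 1252 ± 233 at 1 day. The log2 fold changes were 0.32 ± 0.22 at 1 day, 0.26 ± 0.22 at 3 days and -0.06 ± 0.22 between the times (limma adjusted p of 0.998 to 1.00). The 1-day value was 0.19 without 1-day c and 0.12 without the doubted arrays, and between the times the value was 0.072 without them. Within letters a, b and c, Ctss was higher than control by 0.07, 0.17 and 0.72 at 1 day and by 0.31, 0.08 and 0.39 at 3 days, 3 of 3 pairs at each time.

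Ctss was the 1 tested marker probe set of 9 whose groups did not overlap at 3 days; 4.73% of all tested probe sets were higher in this way. It belongs to the brightest 5% of tested probe sets, and these were higher as a class at 3 days: 190 of the 262 were higher than control (median log2 fold change 0.21), while the median over all tested was 0.02. At 1 day 133 of the 262 were higher, with a median of 0.00215. Counts and medians of this class are from all 9 arrays and were not computed without the doubted arrays, whose brightest signals were low. The summed signals of 8 markers of magnocellular neurons (9699 to 12697 at 3 days, against 3906 to 7492 in control) also lay above control at 3 days, and those of 9 astrocyte markers were 10818 to 13764 against 6624 to 11201. The part of the bright class and of the neuronal and astrocyte markers in the Ctss result at 3 days was not tested. After quantile normalization, which gives all arrays the same range of signals, Ctss stood at 0.20 at 3 days, and without the doubted arrays at 0.19.

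Among the genes of MHC class II antigen presentation, 9 of the 12 on the array were tested, Ctss and RT1-Da included. At 1 day 6 were higher and 3 lower (median 0.09), at 3 days 5 higher and 4 lower (median 0.0084), and between the times 3 higher and 6 lower (median -0.06); 0 were called and 0 had an unadjusted p under 0.05. The smallest p was that of RT1-DOa, a chain of the molecule that modulates peptide loading. It read 348.9, 326.4 and 270.3 at 3 days, against 275.2, 174.9 and 176.3 in control. These groups overlapped by 1 array each, with a log2 fold change of 0.61 ± 0.29 (limma adjusted p = 1.00). Of the MHC class I list 7 of 8 genes on the array were tested, with 5 higher and 2 lower at 1 day (median 0.19) and 2 higher and 5 lower at 3 days (median -0.30), and 0 called. Its smallest p was that of B2m, the light chain of class I molecules, at -0.51 ± 0.27 between the times (limma adjusted p = 0.998).

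The lysosomal list, which also holds Ctss, had 10 of 12 genes tested. At 1 day 7 were higher and 3 lower (median 0.16), and at 3 days 9 were higher and 1, Lamp2, lower (median 0.21); 0 were called and 0 had an unadjusted p under 0.05. The smallest p was that of Cst3, cystatin C, a secreted inhibitor of cathepsins, at 0.58 ± 0.31 at 3 days (limma adjusted p = 1.00). Cst3 read 3321, 3534 and 3946 at 3 days, against 2631, 2888 and 1803 in control. Ctss, Cst3 and Lamp1, 3 genes of this list, are in the brightest 5% of probe sets, whose median at 3 days was 0.21.

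Ptprc encodes CD45, the tyrosine phosphatase on all white blood cells, and 1 of its 3 probe sets was tested. M25823_s_at read 43.5, 7.2 and 10.7 in control, 40.6, 36.7 and 32.5 at 1 day, and 19.7, 38.1 and 7.9 at 3 days. The 1-day arrays lay close together, while control and 3 days each spread over most of the range, so all groups overlapped. The log2 fold changes were 1.03 ± 0.64 at 1 day, 0.20 ± 0.64 at 3 days and -0.83 ± 0.64 between the times (limma adjusted p of 0.998 to 1.00). This probe set passed the filter through its 1-day signals, with means of 20.5 in control, 36.6 at 1 day and 21.9 at 3 days, so its 1-day value is tied to the filter and supports nothing. That value was 1.66 without control a and 0.61 without control b, and at 3 days the value was 0.83 without control a and -0.016 without the doubted arrays. The probe set K03039mRNA_s_at read 0.20 to 3.6 over the 9 arrays. M10072mRNA_s_at read 1.2 to 24.4, with the highest value on 3-day b.

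Itgam encodes CD11b, the alpha chain of complement receptor 3. It read 15.0, 19.8 and 9.2 in control, 14.8, 42.0 and 8.3 at 1 day, and 8.4, 12.1 and 12.3 at 3 days, with only 1-day b above the filter level. Of 7 leukocyte adhesion genes on the array 5 were tested; 3 were higher and 2 lower at 1 day, and 4 higher and 1 lower at 3 days (median 0.26). The 1 that was lower at 3 days, the integrin beta 1 gene Itgb1, had the smallest p, at -1.09 ± 0.56 (limma adjusted p = 1.00). Fcgr2b, the inhibitory receptor for immunoglobulin G, read 3.6, 4.0 and 13.7 in control, 6.1, 3.3 and 2.5 at 1 day, and 3.0, 29.1 and 6.9 at 3 days. Here too all groups overlapped, and the 29.1 of 3-day b was the only value above the filter level. Of the 6 genes of Fc receptor and ITAM signalling on the array 1 passed the filter, the kinase gene Lyn, with log2 fold changes of 0.95 ± 0.68 at 1 day and 0.72 ± 0.68 at 3 days.

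**Figure D4:**
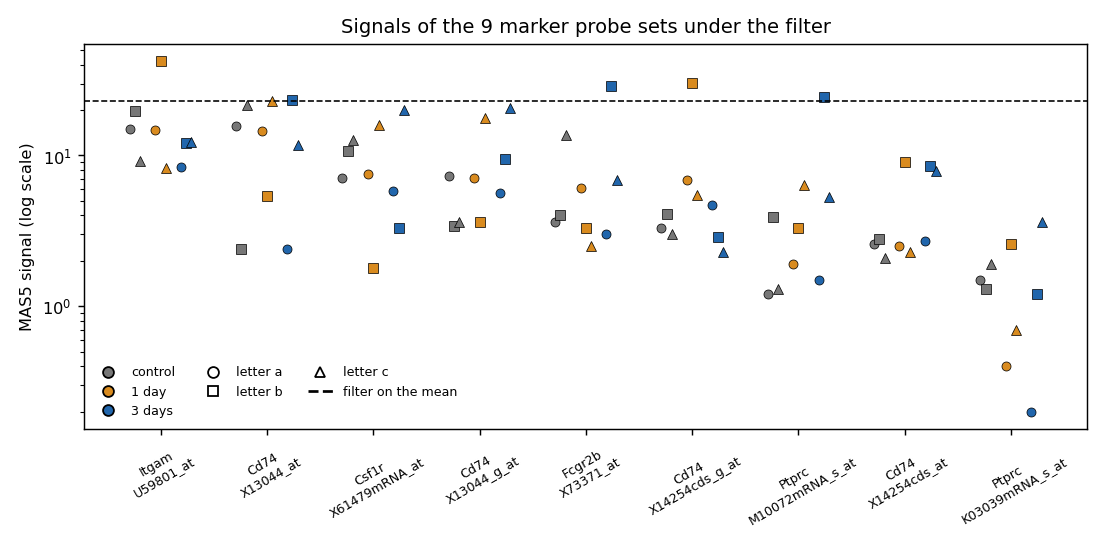
MAS5 signal (vertical axis, log scale) of the 9 marker probe sets with a mean under the filter, by probe set from the highest mean to the lowest, coloured by group with a shape per letter; the dashed line is the filter level of 23.1, which applies to the mean of 9 arrays. A few single arrays lie above it, such as 1-day b for Itgam (42.0) and 3-day b for Fcgr2b (29.1).

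Cd14 encodes the coreceptor that passes bacterial lipopolysaccharide to Toll-like receptor 4. The probe set AF087943_s_at read 31.1, 41.0 and 14.2 in control, 41.2, 8.5 and 4.1 at 1 day, and 49.4, 61.0 and 39.3 at 3 days. The 1-day arrays b and c were the lowest of the 9, and the 1-day array a lay among those of 3 days, so the groups overlapped. Between the times the log2 fold change was 1.68 ± 0.64, with the 3-day array higher in 3 of 3 letter pairs. This was the 1 marker value with an unadjusted p under 0.05 (0.023), and it did not pass over all tested probe sets (limma adjusted p = 0.998). Against control the values were -0.88 ± 0.64 at 1 day and 0.80 ± 0.64 at 3 days; the 3-day array was higher than control in 3 of 3 letter pairs. Single arrays moved these values: at 1 day it was -1.61 without 1-day a and -0.37 without 1-day c, at 3 days 0.42 without control c, a doubted array, and between the times 1.16 without 1-day c.

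The other Cd14 probe set, AF087944mRNA_s_at, read 88.9, 72.0 and 58.6 in control, 110.4, 31.3 and 52.4 at 1 day, and 71.8, 80.4 and 79.9 at 3 days. The 1-day arrays held both the highest and the lowest value. The log2 fold changes were -0.32 ± 0.40 at 1 day, 0.09 ± 0.40 at 3 days and 0.41 ± 0.40 between the times. Without 1-day b, which read 31.3, they were 0.077 at 1 day and 0.017 between the times. Both Cd14 probe sets had an r of 0.75 over the 9 arrays (Spearman 0.63). Of the 10 genes of CD14 and Toll-like receptor signalling on the array 5 were tested, with 3 higher and 2 lower at each time against control (medians 0.25 at 1 day and 0.09 at 3 days) and 0 called. Nos2, the inducible nitric oxide synthase, had the smallest p of this list, at -0.96 ± 0.47 between the times (limma adjusted p = 0.998). The cytokine genes Tnf, Il6 and Il1b and the receptor gene Tlr4 were under the filter, with means of 5.64, 11.1, 18.9 and 9.70; Il6 read 70.2 on 1-day b and at most 7.2 on the 8 others.

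**Figure D5:**
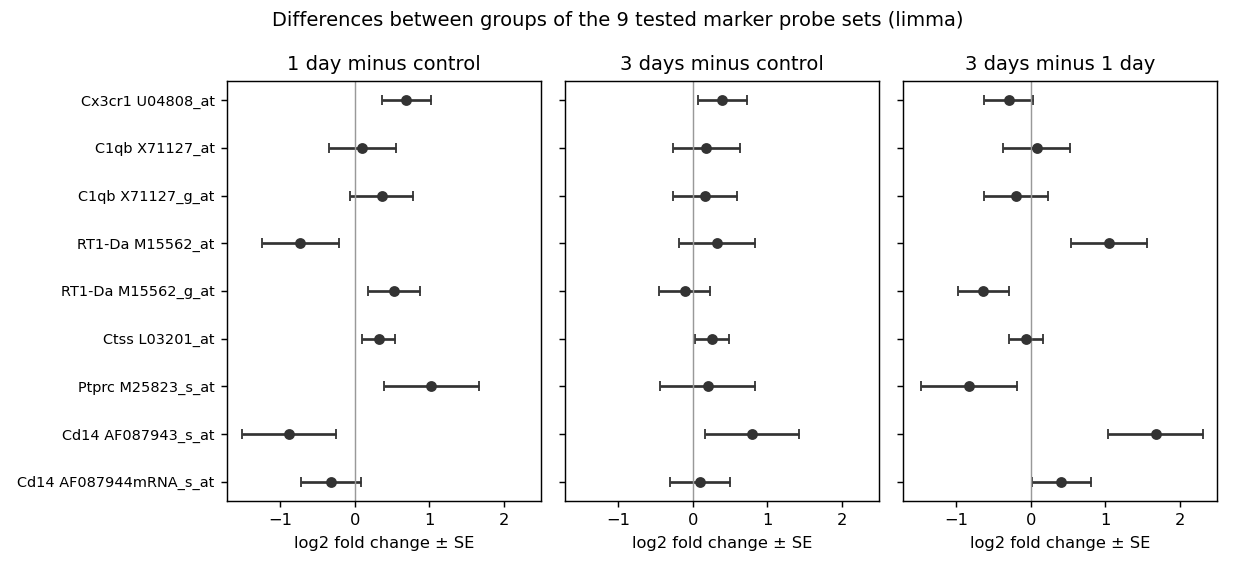
Log2 fold change ± SE (horizontal axes) of the 9 tested marker probe sets in limma, in 3 panels: 1 day minus control, 3 days minus control and 3 days minus 1 day. Cx3cr1 lies at 0.69 ± 0.33 in the first panel, RT1-Da and Cd14 have their largest differences between the times, and 0 of the 27 values passed the test.

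Over the list, the tested marker probe sets had these median log2 fold changes: 0.32 at 1 day (6 higher, 3 lower), 0.20 at 3 days (8 higher, 1 lower) and -0.06 between the times (4 higher, 5 lower). The medians over all tested probe sets were 0.02, 0.02 and 0.0013. The 1-day median and count include Ptprc M25823_s_at, whose 1-day value is tied to the filter. C1qb, RT1-Da and Cd14 enter with 2 probe sets each, those of RT1-Da in opposite directions. The medians also rest on few arrays. Without control b the 1-day median was -0.060 (4 higher, 5 lower) and the 3-day median 0.092 (6 higher, 3 lower), and without 1-day c the 1-day median was 0.10 (5 higher, 4 lower). Without the doubted arrays they were 0.12 at 1 day (5 higher, 4 lower), 0.28 at 3 days (6 higher, 3 lower) and 0.072 between the times (6 higher, 3 lower). With no filter, the 18 had medians of 0.30 and 0.19 against control at 1 and 3 days, with 12 higher and 6 lower at each time, where all 8740 probe sets had 0.03 and 0.05; 0 of the 18 were called. Higher than control in all 3 letter pairs were Cx3cr1, Ctss and RT1-Da M15562_g_at at 1 day (16.8% of all tested probe sets), and Cx3cr1, Ctss, Cd14 AF087943_s_at and RT1-Da M15562_at at 3 days (16.9%). Between the times the 3-day array was higher in all 3 pairs for Cd14 AF087943_s_at and RT1-Da M15562_at (12.5%) and lower in all 3 for Cx3cr1 and C1qb X71127_g_at (12.9%). The 3-day and 1-day arrays overlapped for all 9, where 5.72% of all tested probe sets had no overlap. These counts describe the list, and its members that passed the filter are not a sample of all markers.

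The markers did not vary as 1 block. The 6 tested genes were each read at the probe set with the highest mean, which for RT1-Da was M15562_g_at. Over the 9 arrays, which share groups and letters, their 15 pairs had a median r of 0.10, with 8 above 0 and 7 below. The r ran from -0.62 (RT1-Da with Cd14) to 0.61 (Cx3cr1 with RT1-Da). Both ends thus rest on M15562_g_at, which had an r of -0.79 with M15562_at. Cx3cr1 had an r of 0.50 with Ctss and -0.51 with C1qb. Of the spread of the 9 tested probe sets a median of 42.7% lay between groups and 27.9% between letters. Over all tested probe sets these were 15.7% and 43.6%. The 9 include 2 probe sets each of C1qb, RT1-Da and Cd14, and Ptprc M25823_s_at, which passed the filter through its 1-day signals. These shares hold no direction: M15562_at and M15562_g_at of RT1-Da, which ran in opposite order, had 42.7% and 55.3% between groups.

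For each tested gene the other genes with the most similar signal over the 9 arrays were found among 3188, by Pearson r of the log2 values. Each tested gene was again read at the probe set with the highest mean. For Cx3cr1 these were Fmc1 (r = 0.93) and Dpys (0.91), and for Ctss Cirbp (0.90) and Vamp1 (0.81). C1qb was most like Ppp2r1a (0.96) and Fyn (0.95), and RT1-Da, at M15562_g_at alone, like Cdk5rap3 (0.92) and Rfx5 (0.89). Ptprc was most like Sparc (0.93) and Alpl (0.89), and Cd14 like Atp4a (0.96) and Pou2f2 (0.96). These are the highest of many, over arrays that share groups and letters; with group and letter means subtracted, the r of Cx3cr1 with Fmc1 was 0.77 and with Dpys 0.31.

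The signals were also set beside markers of other cells. The summed signal of the 10 microglia markers on the array lay in the range 1456 to 1605 for control, 1676 to 2187 for 1 day and 1744 to 1800 for 3 days, with no overlap with control at either time. Without Ctss, which makes up most of that sum, it was 500.8 to 557.1 for control, 542.7 to 698.2 for 1 day and 578.1 to 601.9 for 3 days. The 1-day arrays then overlapped with control and the 3-day arrays did not. That 3-day difference is mostly the difference in C1qc and not a rise across the markers. The means without Ctss were 536.0 in control and 589.5 at 3 days, and those of C1qc alone were 139.2 and 191.6. A share over all probe sets was not computed for sums. The red cell and endothelial sum also lay apart from control at both times, and that of magnocellular neurons at 3 days. Of the 10 microglia markers 3 were under the filter, Csf1r, Itgam and Aif1, and 0 read 0 on any array. Their means at 3 days (9.67, 10.9 and 14.5) were below those in control (10.1, 14.7 and 24.9). Of the 7 tested, 5 were higher and 2 lower at 1 day, and 6 higher and 1 lower at 3 days. The 5 include Ptprc, whose 1-day value is tied to the filter. P2ry12, an ADP receptor of resting microglia, stood at -0.21 ± 0.41 at 1 day and -0.58 ± 0.41 at 3 days.

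The 5 perivascular macrophage markers on the array summed to 124.6 to 173.5 for control, 143.0 to 186.0 for 1 day and 125.9 to 160.0 for 3 days. For the 11 lymphocyte markers, of which 8 were under the filter, the sums were 184.2 to 249.5 for control, 186.8 to 308.6 for 1 day and 229.3 to 233.9 for 3 days. The 8 granulocyte and mast cell markers, 6 of them under the filter, summed to 88.2 to 176.1 for control, 49.8 to 213.4 for 1 day and 125.0 to 133.7 for 3 days. In these 3 lists the sums of all groups overlapped. The red cell and endothelial sums were 1957 to 2758 at 3 days, below the 3282 to 3464 of control, and 3771 to 5223 at 1 day, above it. They rest mostly on the globin genes Hbb and Hbb-b1, with means of 1559 and 1134 over the 9 arrays. Of the 6 tested genes of that list 3 were higher and 3 lower at 1 day, and 1 higher and 5 lower at 3 days.

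Of 14 other tested genes of microglia and macrophages, from 23 on the array, 4 were higher and 10 lower at 1 day (median -0.12), and 5 higher and 9 lower at 3 days (median -0.15). In this list 0 were called and 0 had an unadjusted p under 0.05. The smallest p was that of Apoe, an apolipoprotein made by astrocytes and microglia, at 0.62 ± 0.28 between the times (limma adjusted p = 0.998). Apoe is also in the brightest 5%, of which 204 of 262 were higher at 3 days than at 1 day, with a median of 0.23.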

How the data were processed

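The authors deposited 1 intensity per probe set and array, and the submitters' processing notes name MAS5 as the tool, with no version. In the deposited intensities each array has a trimmed mean of 100.1. Detection calls and scanner files were not used here. Of 8799 probe sets 59 are controls. Of the 8740 others 7006 carry a single symbol in GEO's annotation of the platform and were used for names; 308 carry several and 1426 carry no symbol. All 10 marker genes matched RefSeq's gene table of GRCr8, used for names, positions and promoters; positions of the probes were not used here.

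From the deposited intensities log2(signal + 4) was computed. The filter was a mean of at least 23.1 (percentile 40), passed by 5247 probe sets. limma 3.58.1 in R 4.3.3 fitted 3 group means to all 9 arrays (6 residual degrees of freedom), with an intensity trend, two-sided tests and Benjamini-Hochberg adjustment over all tested probe sets at 0.05. No p-value is from the marker list alone. For gene lists each gene was read at its probe set with the highest mean; all marker probe sets are named, and of each pathway list the gene with the smallest p. Other genes beside these were named after their values were seen. Similar genes are those with the highest r.

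The markers and lists were chosen with earlier results of these data known. The letters pair the arrays: with group means subtracted, the 9 same-letter pairs correlated at 0.17 to 0.47, and the 18 other pairs at -0.33 to 0.12. The labels do not say what a letter stands for. In simulated arrays for 3 days against control, with 200 of 5247 probe sets changed, 7% of 2-fold and 66% of 4-fold changes were called at the spread without the letter block. At the smaller spread left by the block these were 35% and 87%. False calls numbered 3 and 13. The simulated arrays had no letter effect and both sets were fitted without a block, so 35% and 87% are not the power of the fit with the letter as a block. The median SE of a log2 fold change was 0.40 at 1 day; 3 arrays a group limit the precision. The alternatives were pseudocounts of 1 and 16, no filter, the 60th percentile, quantile normalization, median centring, no intensity trend, only the groups compared, the letter as a block, both letter c arrays of control and 1 day left out, and each array left out. The plots used matplotlib 3.10.9 in Python 3.11.15.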

Additional observations from a re-analysis of the deposited data

Results flagged for a closer look

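The RT1-Da probe set M15562_at stood out because its letter pairs ran opposite ways at the 2 times. In 3 of 3 pairs the 1-day array was lower than control, by -0.34, -1.83 and -0.018 on the log2 scale for letters a, b and c, and in 3 of 3 pairs the 3-day array was higher, by 0.15, 0.75 and 0.067. Both times were set against the same control arrays. The share of all tested probe sets whose letter pairs ran opposite ways in this manner was not computed. The direct comparison of the times gave 1.05 ± 0.51 and did not pass (limma adjusted p = 0.998, and 0.770 to 1.00 over the alternatives). With 1 array left out in turn it was 0.49 to 1.47, lowest without 1-day b, where the signal was 6.0; the 1-day value of -0.73 was -1.15 to -0.17, nearest to 0 without the same array. The other RT1-Da probe set, M15562_g_at, gave -0.64 ± 0.34 for the same comparison.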

How the results depend on the processing

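Under all 19 alternatives 0 marker probe sets and 0 of all tested probe sets were called, and the lowest adjusted p of any marker value was 0.728. The 27 marker values gave 501 values under the alternatives, of which 480 kept their direction and 21 did not, in 11 of the 27. With the replicate block (paired by letter) 0 probe sets were called in each comparison, so it changed no call; Cx3cr1 at 1 day kept its 0.69 with an SE of 0.23 (limma adjusted p = 0.958, unadjusted p = 0.015, a level that 2.59% of all tested probe sets reached), and Cd14 AF087943_s_at between the times its 1.68 with an SE of 0.52 (limma adjusted p = 0.770, unadjusted p = 0.011, reached by 5.24%). Without the letter c arrays of control and 1 day, 5 values changed sign: Cd14 AF087944mRNA_s_at at 3 days (-0.048), Ptprc M25823_s_at at 3 days (-0.016), C1qb X71127_at at 1 day (-0.081), and between the times Ctss (0.072) and C1qb X71127_g_at (0.063). With 1 array left out in turn the values that changed sign spanned, for C1qb X71127_at, -0.39 to 0.51 at 1 day, -0.021 to 0.49 at 3 days and -0.33 to 0.57 between the times. For C1qb X71127_g_at these were -0.060 to 0.78, -0.26 to 0.59 and -0.40 to 0.063. Cd14 AF087944mRNA_s_at spanned -0.77 to 0.077 at 1 day and -0.048 to 0.24 at 3 days, RT1-Da M15562_g_at -0.35 to 0.027 and Ptprc M25823_s_at -0.24 to 0.83 at 3 days, and Ctss -0.20 to 0.072 between the times. The cause was not tested. Cx3cr1, Cd14 AF087943_s_at and RT1-Da M15562_at kept their direction in each comparison under all alternatives run. They did not keep their size (Cd14 AF087943_s_at at 3 days spanned 0.42 to 1.07 with 1 array left out). The other RT1-Da probe set, M15562_g_at, ran opposite to M15562_at. The 9 marker probe sets under the filter have signals too low to give a direction.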
